A study of Homo sapiens with 10 samples.

Results

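Lymphocyte homing and positioning receptors are the surface receptors, with 1 G protein subunit, through which B cells find and stay in the compartments of lymphoid tissue. The 10 genes described here are the chemokine receptors CCR7, CXCR4, CXCR5, CXCR3 and CCR6, the sphingosine-1-phosphate receptors S1PR1 and S1PR2, the oxysterol receptor GPR183 (EBI2), the receptor P2RY8 and GNA13, which encodes the G protein subunit Gα13. They were taken by name, and every probe of the deposited non-normalized table that the platform's gene table assigns to one of them was used, whatever its values. This gave 19 probes for the 10 genes, of 48107 probes and 18352 named genes in all.

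Transcript levels came from Illumina BeadChips hybridised with RNA of OCI-LY10, an established human lymphoma line (diffuse large B-cell lymphoma, ABC type). The cells received 1 micromolar CC-122 for 18 hours (5 arrays), against the solvent DMSO for the same time (5 arrays). CC-122 (avadomide) is a cereblon ligand that redirects a ubiquitin ligase towards the lymphoid transcription factors Ikaros and Aiolos. Both groups were the same line grown in culture. Whether replicates were grown apart is not stated in the labels, so the spread behind each p-value is that between these arrays and may be technical. A line in culture has no stromal or follicular dendritic cells, the tissue sources of most of the ligands.

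As background, CCR7 directs lymphocytes to the T-cell zone, CXCR5 to the follicle and CXCR4 to bone marrow and to the dark zone of the germinal centre. S1PR1 draws cells out into lymph and blood, and GPR183 moves activated B cells to the outer follicle. S1PR2 and P2RY8 act through Gα13 and RhoA to hold germinal centre B cells in place, and this confinement pathway is a known target of mutations in B-cell lymphoma.

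Between 18043 and 18844 probes were detected per array, and the median raw intensity was 108.9 on CC-122 replicate 3 and 74.0 to 81.6 on the other arrays. All 5 B-cell marker genes with a named probe were detected on all 10 arrays. Their levels were not all stable. CD22 was called lower by 0.78 on the log2 scale, and MS4A1 by 0.33 and 0.36. CD79B was called higher by 0.27 to 0.36 and BLK by 0.27, while CD79A was not called. Of 7 T-cell and 5 NK-cell marker genes none passed the filter on dim probes, 3 T-cell and 2 NK-cell genes were detected on no array, and the mean T-cell marker level was 4.30 to 4.33 on CC-122 arrays and 4.24 to 4.48 on DMSO arrays, on the log2 scale. Some markers of other cell types did pass: CD14 and CD68 of 7 monocyte genes, CD1C and LAMP3 of 5 dendritic-cell genes, and EPCAM of 5 fibroblast and epithelial genes. None of these was called, the monocyte mean level was 4.68 to 4.81 on CC-122 arrays and 4.56 to 4.67 on DMSO arrays, and their part in the results was not tested. In a bulk culture, fewer cells that make a transcript and less transcript per cell cannot be told apart.

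The receptors fell into a detected and an undetected set. Probes entered the test when 5 or more arrays gave a detection p-value under 0.05, and all 13 member probes that passed were detected on all 10 arrays. They covered 8 genes: CCR7, CXCR4, CXCR5, CXCR3, S1PR1, GPR183, P2RY8 and GNA13. The other 6 probes did not pass, and 2 genes, CCR6 and S1PR2, had no probe that did.

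**Figure D1:**
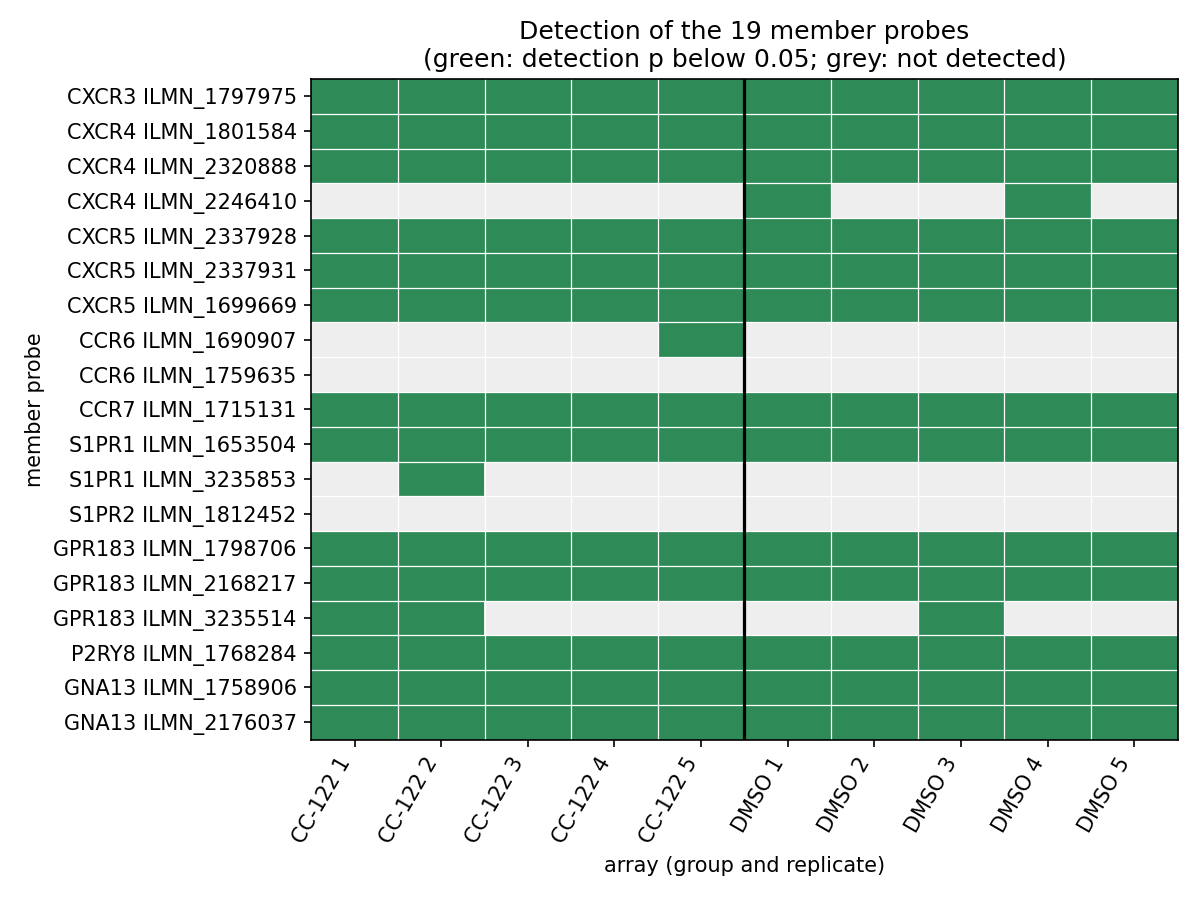
Detection of each of the 19 member probes (rows) on the 5 CC-122 arrays and then the 5 DMSO arrays (columns), green where the detection p-value was below 0.05. The 13 kept probes are green throughout, while CCR6 ILMN_1759635 and S1PR2 ILMN_1812452 are grey on every array.

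CC-122 was compared with DMSO probe by probe with limma's moderated two-sided test, and p-values were adjusted by Benjamini-Hochberg across the 17125 kept probes. Of the 13 kept member probes, 1 was called higher (CCR7) and 2 were called lower (both CXCR4) at an adjusted p below 0.05, and 10 were not called. The background was 10.1% of all kept probes called, 5.78% higher and 4.36% lower. The same 3 member probes had groups that did not overlap, against 10.6% of all kept probes. The split of calls depends on the scaling between arrays: higher probes were 57.0% of all calls with quantile normalization (989 higher and 746 lower), and 84.4% with median scaling (566 higher and 105 lower). Median scaling also left 0 member probes called lower.

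CCR7, the receptor for CCL19 and CCL21, rose after CC-122. Its probe ILMN_1715131 stood at 6.29, 6.41, 6.20, 6.40 and 5.99 on the CC-122 arrays, against 5.92, 5.63, 5.43, 5.77 and 5.38 on the DMSO arrays, in normalized log2 intensity. Every CC-122 array was above every DMSO array, although CC-122 replicate 5 and DMSO replicate 1 lay close together. The means were 6.26 ± 0.17 after CC-122 and 5.63 ± 0.23 after DMSO (SD, n = 5 each), a log2 fold change of 0.63 ± 0.12 (SE, 95% interval 0.38 to 0.89), which is 1.55-fold (limma adjusted p = 0.00353). The call held under all 21 alternative settings, but its size depends on the background correction, since it was 0.41 with a fixed offset of 50 and 0.32 without correction. In raw intensity the probe stood at 214.5 on the bright CC-122 replicate 3 and 117.8 to 135.0 on the other CC-122 arrays, against 94.3 to 114.8 on the DMSO arrays. Without CC-122 replicate 3 the log2 fold change was 0.65.

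CXCR4, the receptor for CXCL12, fell after CC-122 by both of its kept probes. ILMN_2320888 stood at 7.02, 6.87, 7.02, 7.14 and 7.18 on the CC-122 arrays, against 7.45, 7.47, 7.68, 7.50 and 7.63 on the DMSO arrays. The groups did not overlap, with the highest CC-122 array at 7.18 and the lowest DMSO array at 7.45. The probe fell by 0.50 ± 0.08 on the log2 scale (SE, 95% interval -0.68 to -0.33, limma adjusted p = 0.00123), which is 1.42-fold lower. With median scaling it was at -0.41 and no longer called (limma adjusted p = 0.246). In raw intensity the groups overlapped. The bright CC-122 replicate 3 stood at 323.5 and the other CC-122 arrays at 157.1 to 215.4, against 215.1 to 262.7 on the DMSO arrays.

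The other kept CXCR4 probe, ILMN_1801584, also fell. It stood at 7.95, 8.10, 8.16, 8.24 and 7.87 on the CC-122 arrays, against 8.42, 8.31, 8.37, 8.36 and 8.36 on the DMSO arrays. The DMSO arrays lay close together (SD 0.04, against 0.15 after CC-122), and again no array crossed over after normalization. In raw intensity the bright CC-122 replicate 3, at 620.0, was above the DMSO arrays at 342.4 to 388.6. The other CC-122 arrays were at 249.3 to 320.6. The fall was 0.30 ± 0.08 on the log2 scale (SE, limma adjusted p = 0.0291). The call was lost when any of 8 arrays was left out (limma adjusted p up to 0.0700), without the filter on dim probes (limma adjusted p = 0.0504) and with median scaling (-0.21, limma adjusted p = 0.833).

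The distance between both CXCR4 probes averaged 1.02 ± 0.21 after CC-122 and 0.82 ± 0.11 after DMSO (SD, n = 5 each, log2 units). This difference in response did not pass an exact permutation test over the arrays (two-sided, p = 0.103, adjusted p = 0.206 over the 6 pairs of probes of 1 gene that were compared, where the smallest p the design allows is 0.00794). The remaining CXCR4 probe, ILMN_2246410, is annotated to the same transcript as ILMN_2320888 and was detected on 0 CC-122 arrays and 2 DMSO arrays.

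The sequence before the most upstream start of CXCR4 is shown because CXCR4 is the one receptor that fell by more than 1 probe. It holds 250 bases upstream of the start, 5′ to 3′ on the gene's strand, from RefSeq on GRCh38.p14, minus strand, chr2:136118150-136118399, with the KLF box CACCC in capitals:
CXCR4: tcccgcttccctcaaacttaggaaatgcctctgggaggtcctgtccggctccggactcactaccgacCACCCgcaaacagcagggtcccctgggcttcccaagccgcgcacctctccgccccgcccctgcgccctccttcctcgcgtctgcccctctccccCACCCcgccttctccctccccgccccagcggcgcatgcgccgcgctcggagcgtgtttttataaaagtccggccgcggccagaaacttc

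The CACCC box, the core of sites bound by Krüppel-like factors such as KLF2, occurred 2 times in this stretch. It is common, since 59.9% of 34961 promoter windows of 300 bases held it on either strand. The windows reach from 250 bases before to 50 after a start, and 9 of the 10 members matched, with 15 windows, while CCR7 did not. All 9 matched members held CACCC in at least 1 window, and 13 of their 15 windows held it. None of their windows held the NF-kB form, GGG then any 2 bases then TTTCC (1.92% of all windows) or the forkhead site TGTTTAC (3.42%).

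**Figure D2:**
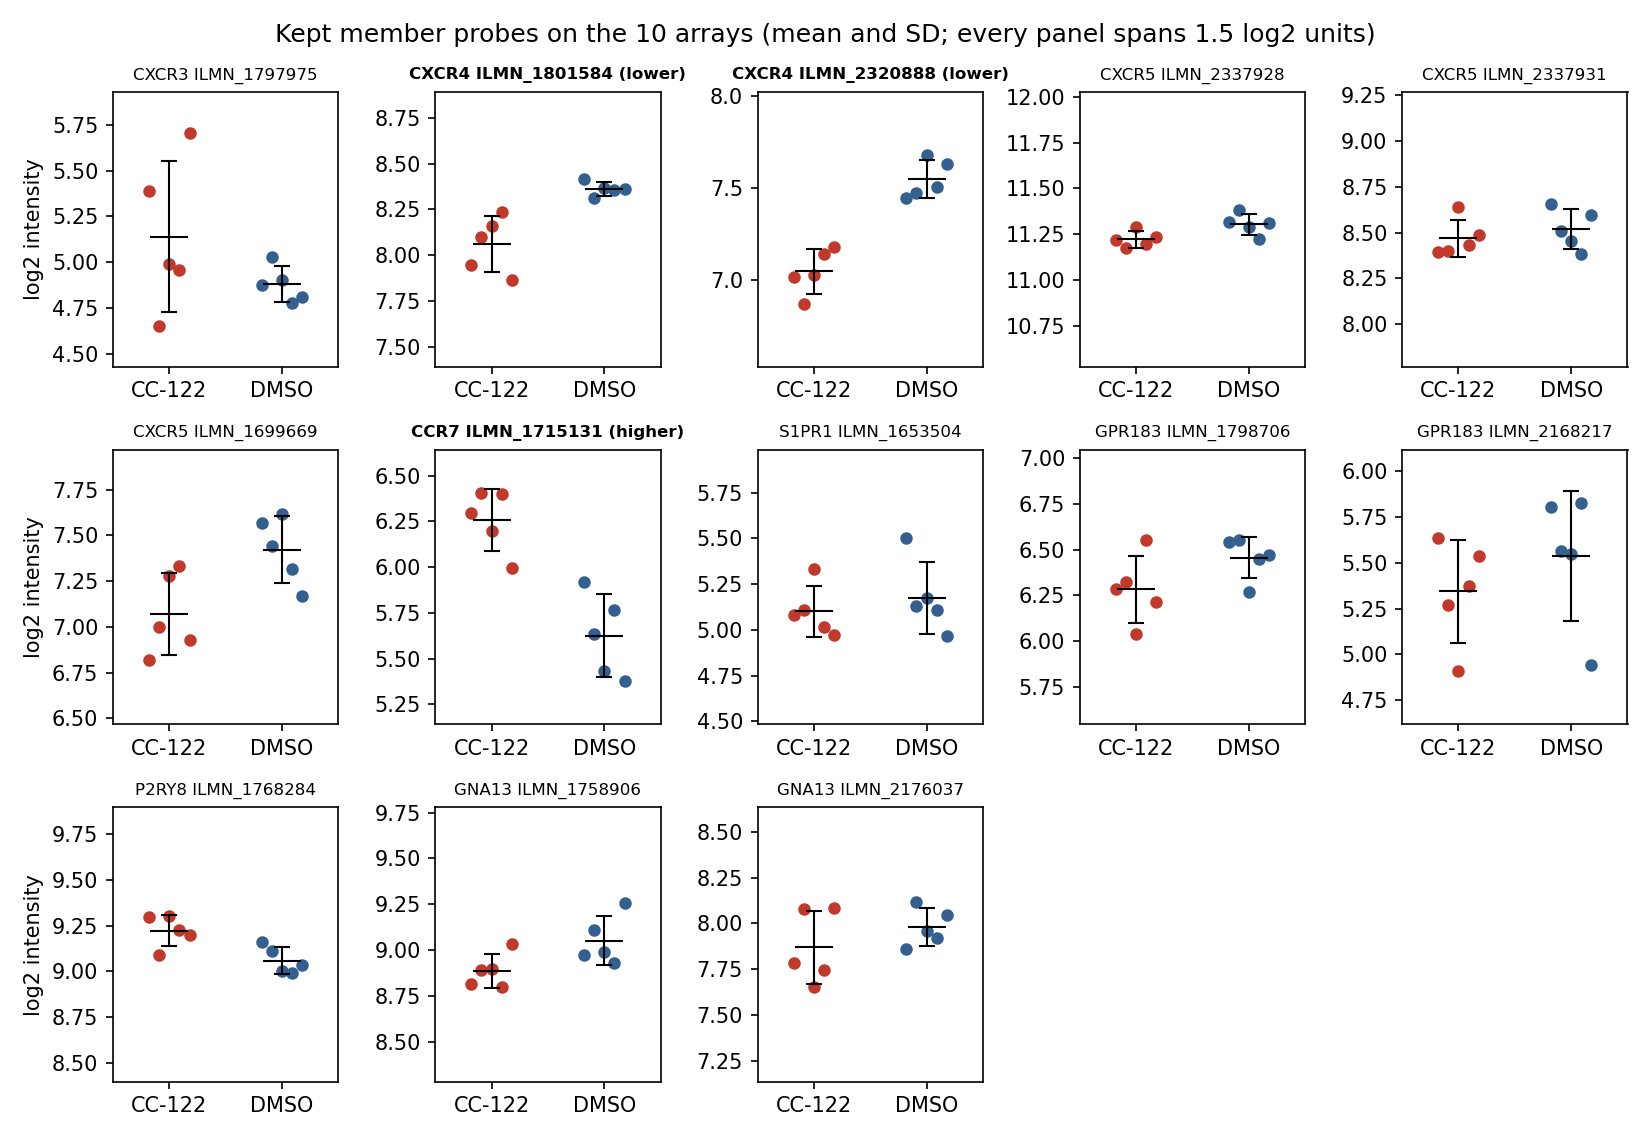
Normalized log2 intensity of each kept member probe on the 5 CC-122 arrays (red, left) and the 5 DMSO arrays (blue, right), with the mean and SD as bars. Every panel spans the same 1.5 log2 units, and only the panels of CCR7 and of both CXCR4 probes show groups that do not overlap.

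CXCR5, the receptor for CXCL13 that defines follicular B cells, was not called by any of its 3 kept probes. ILMN_2337928 ranged from 11.17 to 11.29 on CC-122 arrays and from 11.22 to 11.38 on DMSO arrays, a difference of -0.08 (95% interval -0.21 to 0.05). ILMN_2337931, annotated to the same transcript, differed by -0.05 (95% interval -0.22 to 0.12). For this pair the intervals reach down to -0.22.

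The third CXCR5 probe, ILMN_1699669, is annotated to another transcript and lay lower after CC-122 without passing the test. It stood at 6.82, 7.00, 7.28, 7.33 and 6.93 on the CC-122 arrays, against 7.57, 7.44, 7.62, 7.32 and 7.17 on the DMSO arrays. The groups overlapped, and the difference was -0.35 ± 0.12 on the log2 scale (SE, limma adjusted p = 0.0891). It was called lower with a fixed offset of 50 (limma adjusted p = 0.0322), without background correction (limma adjusted p = 0.0239), with an intensity trend (limma adjusted p = 0.0268) and without CC-122 replicate 4 (limma adjusted p = 0.0493). Its difference from the other CXCR5 probes did not pass the exact permutation test (p = 0.0794 against ILMN_2337928 and p = 0.0635 against ILMN_2337931, both at adjusted p = 0.206).

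CXCR3, the receptor for CXCL9, CXCL10 and CXCL11, was dim and uneven after CC-122. Its probe ILMN_1797975 stood at 5.39, 4.65, 4.99, 4.96 and 5.71 on the CC-122 arrays, against 4.88, 5.03, 4.90, 4.78 and 4.81 on the DMSO arrays. CC-122 replicates 1 and 5 were above all DMSO arrays and replicate 2 was below all of them, so the SD was 0.41 after CC-122 and 0.10 after DMSO. The difference of 0.26 (95% interval -0.09 to 0.61) was not called (limma adjusted p = 0.391).

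CCR6, the receptor for CCL20, was below detection on nearly all arrays. ILMN_1759635 was detected on 0 arrays, and ILMN_1690907 was detected on CC-122 replicate 5 alone, at 4.88 against 4.23 to 4.41 on the other CC-122 arrays and 4.27 to 4.51 on the DMSO arrays. The lowest signal of any detected probe on an array was 4.62 to 4.66, so apart from that 1 array these values carry no order.

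The CCR6 upstream sequence is shown because, of the 9 members with promoter windows, CCR6 alone held the core of the interferon-stimulated response element (GAAA, any 2 bases, GAAA) and the STAT palindrome, TTCNNNGAA. These motifs stood in 3.58% and 7.66% of all windows, and in 1 and 2 of the 15 member windows. The stretch is 250 bases before the most upstream start, from RefSeq on GRCh38.p14, plus strand, chr6:167111545-167111794, with both motifs in capitals:
CCR6: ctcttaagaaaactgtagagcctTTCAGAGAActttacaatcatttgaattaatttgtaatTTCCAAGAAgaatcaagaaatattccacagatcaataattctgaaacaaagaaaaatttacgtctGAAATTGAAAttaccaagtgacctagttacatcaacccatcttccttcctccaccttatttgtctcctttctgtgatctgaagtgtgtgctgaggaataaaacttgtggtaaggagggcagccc

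The stretch holds 1 match to the response element core, searched on both strands, and 2 matches to the palindrome, which do not overlap it. A match describes letters only. No such match was found in the windows of CXCR4, CXCR5, CXCR3, S1PR1, S1PR2, GPR183, P2RY8 or GNA13.

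The egress and outer-follicle receptors did not pass the test. S1PR1, by ILMN_1653504, stood at 5.08, 5.11, 5.33, 5.02 and 4.97 on the CC-122 arrays, against 5.50, 5.13, 5.17, 5.11 and 4.97 on the DMSO arrays. These ranges overlap almost fully, and the difference was -0.07 (95% interval -0.30 to 0.15, limma adjusted p = 0.743). The other S1PR1 probe, ILMN_3235853, was detected on 1 CC-122 array and 0 DMSO arrays.

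GPR183, the receptor for the oxysterol 7α,25-dihydroxycholesterol, was detected by 2 of its 3 probes on every array. ILMN_1798706 stood at 6.28, 6.32, 6.04, 6.55 and 6.21 on the CC-122 arrays, against 6.54, 6.55, 6.27, 6.45 and 6.47 on the DMSO arrays. The groups overlapped, with CC-122 replicate 4 as high as the highest DMSO arrays, and the difference of -0.17 (95% interval -0.38 to 0.03) was not called (limma adjusted p = 0.317). ILMN_2168217 differed by -0.19 (95% interval -0.57 to 0.19) with wide spread in both groups, and ILMN_3235514 was detected on 2 CC-122 arrays and 1 DMSO array.

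**Figure D3:**
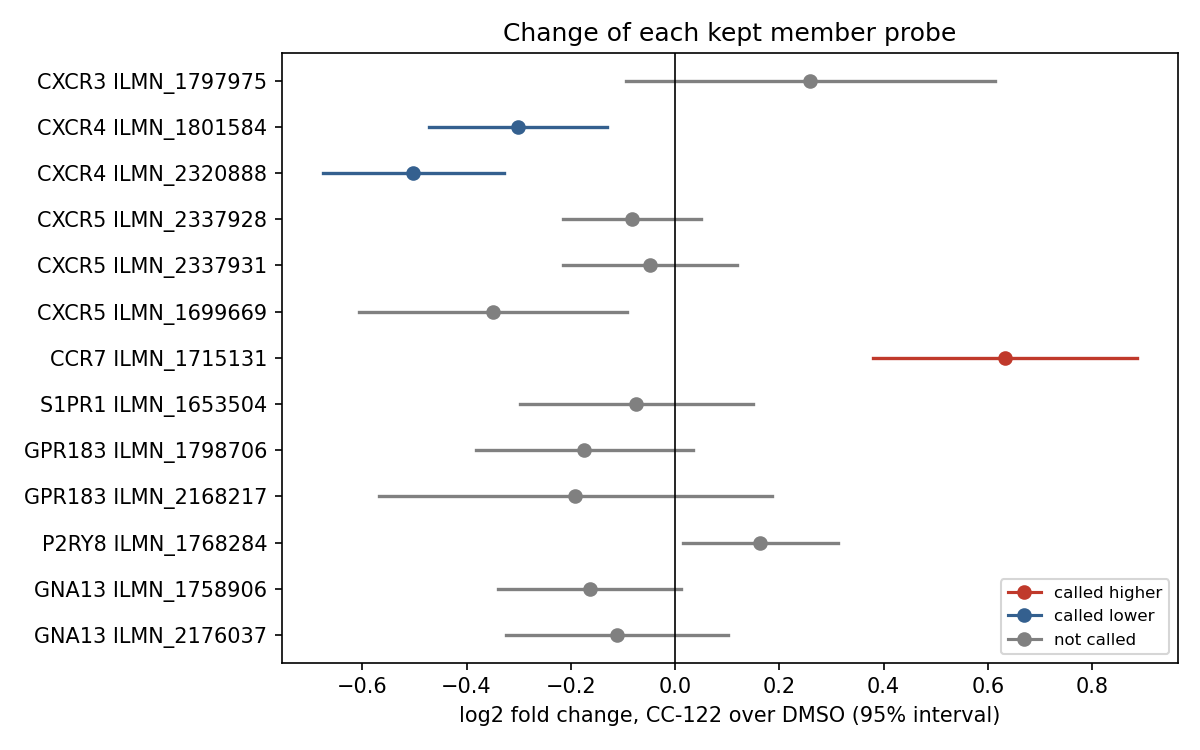
Log2 fold change of each kept member probe, CC-122 over DMSO, with its 95% interval. CCR7 at 0.63 lies to the right of 0, both CXCR4 probes at -0.30 and -0.50 lie to the left, and the 10 grey probes were not called after adjustment.

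Of the confinement pathway, the receptor S1PR2 was not detected, and P2RY8 and GNA13 were detected without a call. S1PR2 ILMN_1812452 was detected on 0 of 10 arrays, with values of 4.23 to 4.55 on CC-122 arrays and 4.26 to 4.53 on DMSO arrays, below the lowest signal of a detected probe. P2RY8, the receptor for S-geranylgeranyl-L-glutathione, stood at 9.30, 9.09, 9.30, 9.22 and 9.20 on the CC-122 arrays, against 8.99 to 9.16 on the 5 DMSO arrays. Of the CC-122 arrays only replicate 2 lay within the DMSO range, and the difference of 0.16 ± 0.07 (SE, 95% interval 0.01 to 0.31) did not pass after adjustment (limma adjusted p = 0.173).

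GNA13, which relays signals from S1PR2 and P2RY8 to RhoA, was lower in mean by both probes, and neither passed. ILMN_1758906 stood at 8.81, 8.89, 8.90, 8.80 and 9.03 on the CC-122 arrays, against 8.97, 9.11, 8.99, 8.93 and 9.26 on the DMSO arrays. Of the CC-122 arrays only replicate 5 lay inside the DMSO range, and the difference was -0.16 (95% interval -0.34 to 0.01, limma adjusted p = 0.256). ILMN_2176037 differed by -0.11 (95% interval -0.32 to 0.10, limma adjusted p = 0.567).

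Across the 13 kept member probes, 10 were lower and 3 higher in mean after CC-122, with a median of -0.11, against a median of -0.02 over all kept probes. With median scaling CXCR5 ILMN_2337931, one of the 10, was at 0.04. The 10 probes not called differed by 0.05 to 0.35 log2 units. Probes of 1 gene share their target, so these counts are not independent.

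**Figure D4:**
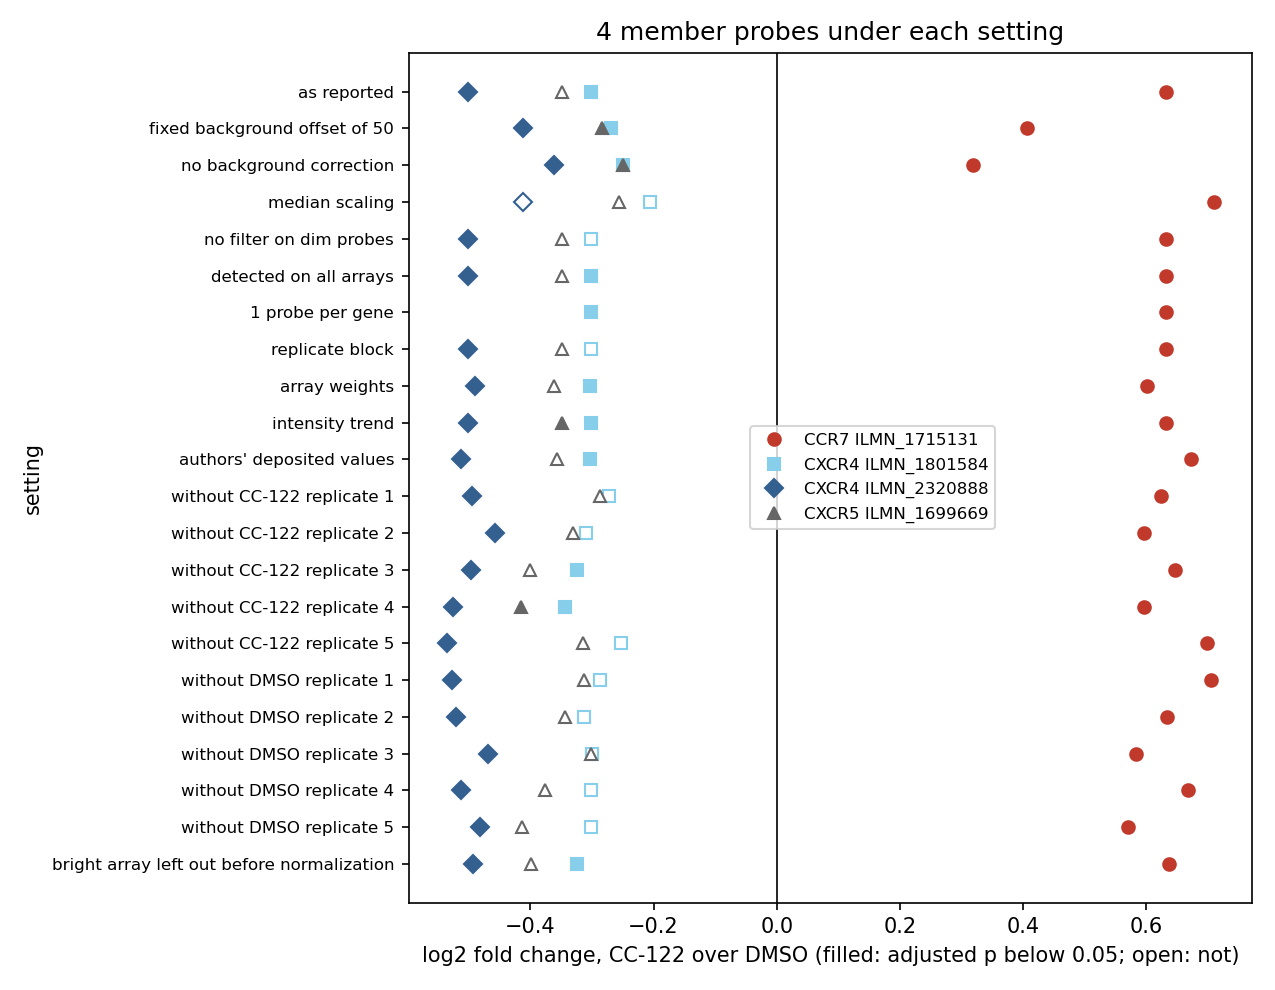
Log2 fold change, CC-122 over DMSO, of CCR7 (circles), both CXCR4 probes (squares and diamonds) and CXCR5 ILMN_1699669 (triangles) under each way of processing the arrays (rows), filled where the adjusted p was below 0.05. The CCR7 circles are filled in every row, between 0.32 and 0.71, while the squares of CXCR4 ILMN_1801584 are open in 11 rows.

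The genes around the receptors were taken from 8 lists of 138 genes: 123 had a named probe, and 80 passed the filter. Each gene was read by its kept probe with the highest mean. Of the 80, 12 were higher, 10 lower and 58 not called, where the background over 9041 genes was 12.5% called (7.13% higher and 5.4% lower). The median was -0.01, as over all genes. With median scaling the counts were 9 higher and 2 lower. CXCL9 and GNG2, counted as higher, passed the filter through the CC-122 arrays, and SGPP1, counted as lower, through the DMSO arrays. The lists were chosen with earlier results of these data known, so the share called is no independent support, and an excess over the background was not tested.

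Among the 8 chemokine ligands of the members, CXCL10 and CXCL9 passed the filter and were called higher. CXCL10, a ligand of CXCR3, stood at 7.84 ± 0.07 after CC-122 and 4.98 ± 0.13 after DMSO (SD, n = 5 each), 7.22-fold higher (limma adjusted p = 5.66e-10), and its log2 fold change of 2.85 was 1.65 without background correction. CXCL9 was detected on all 5 CC-122 arrays and on 0 DMSO arrays, so it entered the test only through the CC-122 arrays, and its call, included in the counts of list genes, is no support for a difference. It stood at 4.92 ± 0.09 after CC-122 and 4.27 ± 0.10 after DMSO (SD, n = 5 each), at least 1.21-fold higher with this background correction, and its log2 fold change of 0.65 was 0.27 with the fixed offset. CXCL12, CXCL13 and 1 further ligand had no probe detected on any array.

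**Figure D5:**
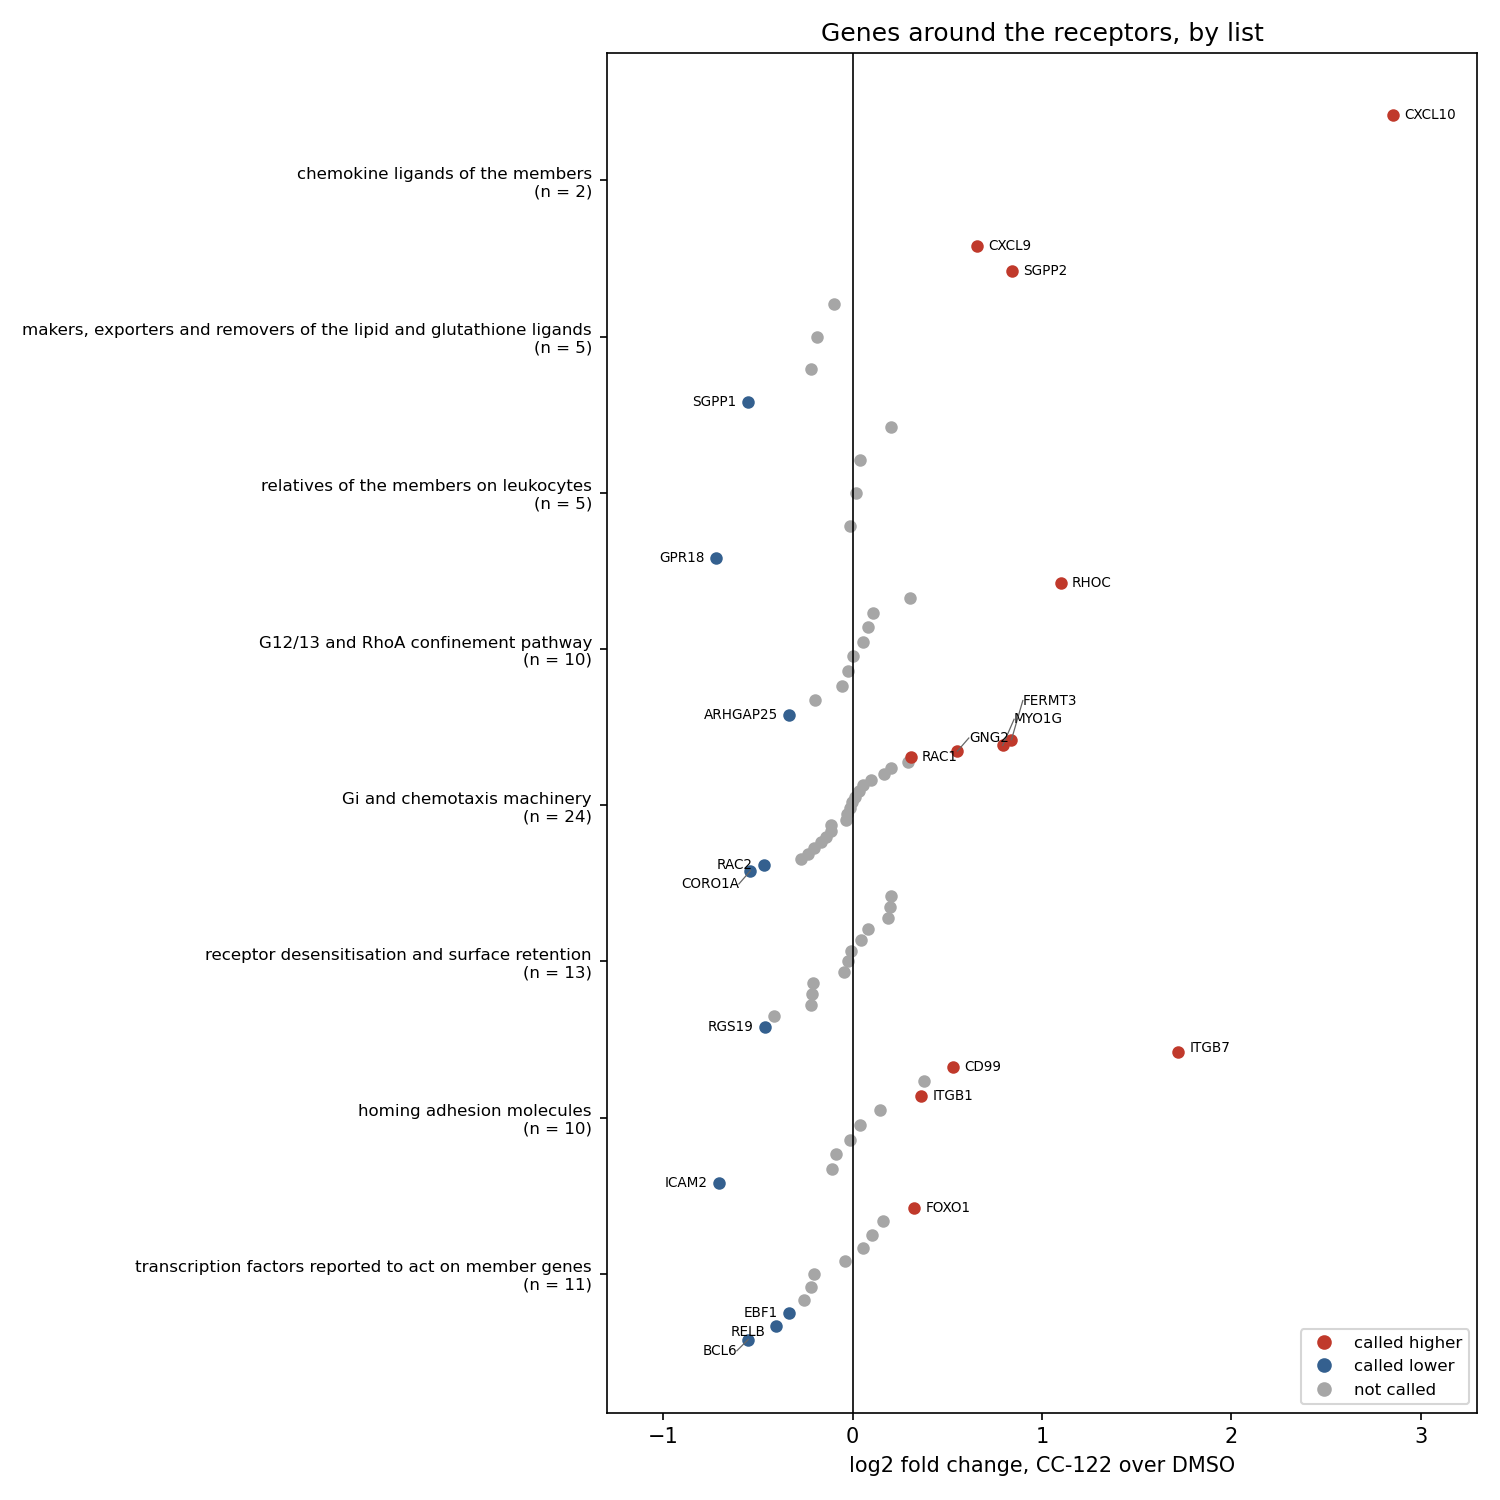
Log2 fold change, CC-122 over DMSO, of each tested gene in the 8 lists (rows, with the number tested), red where called higher, blue where called lower and grey where not called. CXCL10 at 2.85, ITGB7 at 1.72 and RHOC at 1.10 lie farthest to the right, and GPR18 at -0.72 and ICAM2 at -0.70 farthest to the left.

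Of the list of genes that make, export or remove the lipid and glutathione ligands, 5 were tested: 1 was called higher, 1 lower and 3 were not called. Another 8 with a named probe did not pass the filter on dim probes. No listed gene that makes or exports sphingosine-1-phosphate, or acts on the oxysterol or glutathione ligand, was among the 5. SGPP2 and SGPP1 both remove phosphate from sphingosine-1-phosphate, the ligand of S1PR1 and S1PR2. SGPP2 stood at 9.58 ± 0.04 after CC-122 and 8.74 ± 0.11 after DMSO (SD), and rose by 0.84 ± 0.07 on the log2 scale (SE, limma adjusted p = 7.21e-06). SGPP1 stood at 4.57 ± 0.23 after CC-122, where 3 arrays detected it, and 5.13 ± 0.14 after DMSO. It stood lower by 0.55 (limma adjusted p = 0.0066), a size that was -0.25 with the fixed offset, and the call was lost with median scaling. SGPP1 passed the filter through the DMSO arrays, where it stood higher. Its call, included in the counts of list genes, is therefore no support for a difference.

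Of 5 tested relatives of the receptors, GPR18, a receptor found on lymphocytes, fell and 4 were not called. GPR18 stood at 6.15, 5.82, 6.06, 6.46 and 6.31 on the CC-122 arrays, against 6.85, 6.82, 6.85, 6.83 and 7.05 on the DMSO arrays. Every CC-122 array was below every DMSO array, and the fall was 0.72 ± 0.11 on the log2 scale (SE, limma adjusted p = 9.27e-04), or -0.43 without background correction. Another 18 relatives with a named probe did not pass the filter on dim probes.

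Of the G12/13 and RhoA pathway, 1 of 10 tested genes rose, 1 fell and 8 were not called. RHOC rose by 1.10 ± 0.06 on the log2 scale (SE, limma adjusted p = 3.17e-07), standing at 8.12 ± 0.04 after CC-122 and 7.03 ± 0.07 after DMSO (SD), and its other kept probe gave 0.41. ARHGAP25, a GTPase-activating protein for Rac, fell by 0.33 ± 0.07, a call lost with median scaling. RHOA itself differed by 0.004 (95% interval -0.16 to 0.17), and ARHGEF1, the exchange factor between Gα13 and RhoA, by 0.30 (95% interval 0.06 to 0.54, limma adjusted p = 0.118), with its other kept probe at 0.06. By the first probe ARHGEF1 was called higher without DMSO replicate 2 (limma adjusted p = 0.0290).

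Of 24 tested genes of Gi signalling and chemotaxis, 4 rose, 2 fell and 18 were not called. FERMT3 (kindlin-3), which activates integrins, rose by 0.84 ± 0.07 on the log2 scale (SE), with its other probe at 0.50, and MYO1G, a membrane myosin of lymphocytes, rose by 0.79 ± 0.10, or 0.49 without background correction. GNG2, a G protein γ subunit, was detected on 5 CC-122 arrays and 1 DMSO array, and stood higher by 0.55 ± 0.15. It passed the filter through the CC-122 arrays, so its call, counted among the 4, is no support for a difference. Its size was 0.25 with the fixed offset, and its call was lost without any of 6 arrays, among them the bright CC-122 replicate 3, and without the filter on dim probes. CORO1A (coronin-1A), an actin regulator that lymphocytes need for migration, fell by 0.54 ± 0.07, a call lost with median scaling. RAC1 at 0.31 and RAC2 at -0.47, the remaining calls, were named after their values were seen, and with median scaling both lost their calls, at 0.40 and -0.38 (limma adjusted p = 0.266 and 0.332).

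Of 13 tested genes of receptor desensitisation and retention, 12 were not called, and RGS19, a GTPase-activating protein for Gi subunits, fell by 0.46 ± 0.07 on the log2 scale (SE, limma adjusted p = 8.46e-04). The number called lower in this list ranged from 0 to 3 over the alternatives, and from 1 to 2 with 1 array left out. GRK5 at -0.42 and GRK2 at -0.21, kinases that phosphorylate active receptors, were just above the threshold (limma adjusted p = 0.0579 and 0.0587). Both, named after their values were seen, were called lower under the fixed offset, without background correction, with the intensity trend, with 1 probe per gene and with probes detected on all arrays. Of 10 tested adhesion molecules of homing, 3 rose, 1 fell and 6 were not called. ITGB7, the β7 chain of the gut-homing integrin α4β7, rose by 1.72 ± 0.08, with the CC-122 arrays at 9.63 to 9.91 and the DMSO arrays at 7.91 to 8.27. Its partner chain ITGA4 differed by -0.01. CD99 rose by 0.53 ± 0.11 (0.33 without background correction) and ITGB1 by 0.36 ± 0.07, while ICAM2, a ligand of the integrin LFA-1, fell by 0.70 ± 0.08. With median scaling RGS19, at -0.37, and ITGB1, at 0.45, lost their calls (limma adjusted p = 0.359 and 0.152).

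Of 11 tested transcription factors reported to act on genes of these receptors, 1 rose, 3 fell and 7 were not called. BCL6, a transcriptional repressor that drives the germinal centre program, fell by 0.55 ± 0.07 on the log2 scale (SE, limma adjusted p = 2.97e-04). RELB, an NF-kB subunit, fell by 0.40 ± 0.08 and EBF1 by 0.33 ± 0.08. FOXO1 rose by 0.32 ± 0.09 (limma adjusted p = 0.0389), and was at 0.21 without background correction. KLF2 differed by 0.10 (95% interval -0.22 to 0.43). All of these calls were lost with median scaling, that of FOXO1 also without any of 8 arrays and that of EBF1 without any of 4.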

How the data were processed

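The authors deposited a probe intensity on a linear scale, described as non-normalized, and a detection p-value for each probe and array. Normalized log2 values that the authors deposited separately correlated best with their own array on all 10 columns (r at least 0.9999, median 4.54 in each column), which settles scale and direction but not the normalization method, and served as an alternative. No source used here names the scanner software. The neqc procedure (limma 3.58.1, R 4.3.3) normalized the intensities (background from detection p-values, offset 16, quantile normalization); 1 probe with a missing value was left out. Gene names came from the table of the platform (26359 with 1 gene, 3 with several), with symbols updated through gene identifiers (26326 matched, 36 not), and 21745 probes were unnamed. limma's lmFit and eBayes were fitted over all kept probes, and group means have SDs while log2 fold changes have standard errors. The fit was tested on simulated data. Alternatives were another or no background correction, median scaling, other filters on dim probes, 1 probe per gene, a replicate block, array weights, an intensity trend, the authors' values and leaving out each array. All members' probes were named, with up to 4 called genes of each list and a few set genes (RHOA, ARHGEF1, KLF2 and others). RAC1, RAC2, GRK2, GRK5 and ITGA4 were named outside this rule. The members, lists and rules were chosen with earlier results of these data known. The number of arrays limits the precision.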

Additional observations from a re-analysis of the deposited data

Results flagged for a closer look

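No kept member probe had an array past the limit given below, and the dim member probes were not examined. Within that limit, GPR183 ILMN_2168217 was at 4.94 on DMSO replicate 5, against 5.55 to 5.83 on the other DMSO arrays. Without that array its log2 fold change was -0.34 and still not called (limma adjusted p = 0.182). RAC1, RAC2, GRK2, GRK5 and ITGA4 were not examined either. For the kept member probes and the other tested genes named from the lists, 72 groups of 5 arrays were examined. In 6 of them 1 array was set apart from the other 4 by more than Dixon's limit of 0.71 of the range, where chance gives about 5% of groups. SGPP2 was at 9.50 on CC-122 replicate 3, against 9.59 to 9.60 on the other CC-122 arrays. MYO1G was at 7.31 on CC-122 replicate 4, where the next was 6.98, and ICAM2 was at 7.54 on CC-122 replicate 2, where the next was 7.28. On DMSO arrays, GPR18 was at 7.05 and FERMT3 at 7.38 on replicate 5, where the nearest values were 6.85 and 7.50. KLF2 was at 5.46 on DMSO replicate 4, where the next was 4.99.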

How the results depend on the processing

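The number of member probes called higher was 1 under all 21 alternatives, 1 of which (the bright array left out before normalization) was added after seeing the data. The number called lower was 2, and it was 0 with median scaling, 1 without the filter on dim probes, 1 with 1 probe per gene, where only 8 member probes are tested, and 1 to 3 with 1 array left out. It was 3 with the fixed offset of 50, without background correction and with the intensity trend, where CXCR5 ILMN_1699669 was called too. The replicate numbers share no stated batch, although same-numbered arrays of both groups carry consecutive identifiers as column headers. What these identifiers stand for is not stated. Deviations of same-numbered arrays correlated at -0.004 to 0.146, with 2 of 5 best with their own number. With the replicate number as a block, 1 member probe was called lower, because CXCR4 ILMN_1801584 had an adjusted p of 0.0636 from limma, and EBF1 and FOXO1 lost their calls too. Genes of the lists called lower were 10, and 2 with median scaling, which also gave 566 higher and 105 lower among all probes. With 1 array left out, list genes called numbered 10 to 12 higher and 9 to 11 lower, and all probes 821 to 926 higher and 560 to 676 lower. The cause of these changes was not tested. No called value changed sign. Dim probes limit the sizes: CCR6 and S1PR2 gave no usable level, and without the filter none of the 6 dim member probes was called (adjusted p at least 0.411 from limma).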
